A study of Mus musculus with 8 samples.

Results

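Foxp3 CUT&Tag signal was examined at 8 genes of the NF-kB pathway, namely Nfkb1, Nfkb2, Rel, Relb, Traf1, Traf3, Tnfaip3 and Nfkbia. Each site went to the protein-coding gene that contained its centre, with 5 kb allowed on either side, and failing that to the gene with the closest end up to 100 kb away. By this rule 9 of the 5521 listed Foxp3 binding sites belonged to these genes, and all 9 lay at 3 of them: 5 at Tnfaip3, 3 at Nfkb1 and 1 at Rel. Nfkb2, Relb, Traf1, Traf3 and Nfkbia had none. The genes were chosen by pathway with earlier results of these data known, and the authors had selected the listed sites as Foxp3 binding sites, so the Foxp3 levels below are a description.

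NF-kB factors are dimers of the proteins encoded by Rela, Rel, Relb, Nfkb1 and Nfkb2. IkB proteins such as the product of Nfkbia hold many, but not all, of these dimers in the cytoplasm until a kinase complex triggers IkB degradation. Antigen receptor, costimulatory and TNF receptor signals reach this kinase through TRAF and other adaptor proteins, and the products of Tnfaip3 (A20, a ubiquitin-editing enzyme) and Nfkbia end the response. In regulatory T (Treg) cells, c-Rel, the product of Rel, is known for its part in turning on Foxp3, and NF-kB signalling is known for its part in the effector Treg (eTreg) state.

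CUT&Tag uses an antibody to tether a transposase to chromatin, so that DNA close to the antibody's target is cut and sequenced. Treg cells, labelled CD4+hCD2+GFP-, came fresh from the spleen and lymph nodes of mice of the strain C57BL6/J by cell sorting. The WT groups had the genotype Foxp3WT-IRES-hCD2/Foxp3-IRES-GFP and the R397W groups Foxp3R397W-IRES-hCD2/Foxp3-IRES-GFP. All cells thus came from mice that also carried a Foxp3-IRES-GFP allele, and the sort kept cells with hCD2 and without GFP. Each genotype had 2 libraries with anti-Foxp3 and 2 with normal rabbit IgG as background. Foxp3 and IgG libraries with the same sample name in their titles are called a pair here, although whether they came from the same cells is not stated. Age, sex and the number of mice per library are not given in the sources used here. P-values therefore measure only the spread between these libraries, which may be technical. The limma fits below also draw the spread at each site toward a trend over all sites. Their SEs and p-values at a site thus reflect more than the scatter of its own libraries. Fewer bound cells and less binding per cell cannot be told apart in such bulk libraries.

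The files give a normalised read count per library at sites that the authors sorted into 3 classes, common, cTreg-specific and eTreg-specific. Reads in the listed sites numbered 111274 to 394196 per library, and from 3.13% to 66.8% of all sites had no reads in a library, most often in the libraries numbered 2. Of the Treg marker genes Foxp3, Il2ra, Ctla4, Ikzf2, Ikzf4 and Tnfrsf18, 5 of 6 had a listed site (none at Tnfrsf18), as had 5 of 5 naive or resting T cell markers, against 0 of 4 B cell, 0 of 4 myeloid and 1 of 4 CD8 T and NK cell markers. These counts describe the named genes only, since the share over all genes was not worked out. The assay measures binding and gives no RNA level for any of these genes.

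The sites are listed here in mm10 coordinates as the files give them, each about 400 bp wide. The Tnfaip3 sites, in order of coordinate on chromosome 10, were site A (18941480 to 18941880, eTreg-specific), site B (18964787 to 18965187, eTreg-specific), site C (18983571 to 18983971, common), site D (19009285 to 19009685, common) and site E (19066923 to 19067323, cTreg-specific). Tnfaip3 itself spans 19000910 to 19015410 on the minus strand, so sites A, B and C lay beyond its 3′ end, by 59230, 35923 and 17139 bp. Site D lay inside the gene, 2478 bp downstream of the nearer of 2 annotated start sites, and site E lay 51713 bp upstream of the other. All 5 sites fell within 125843 bp, and 192 of the 2760 genes with a site had 5 or more.

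Nfkb1, which encodes the precursor p105 and the subunit p50, spans 135584655 to 135691969 on chromosome 3 and held all 3 of its sites inside its body. Site A (135594403 to 135594803) and site B (135665815 to 135666215) were eTreg-specific, and site C (135691341 to 135691741), 428 bp inside the gene's higher-coordinate end, was common. The single Rel site (chromosome 11, 23743432 to 23743832, common) lay inside the gene, 27337 bp downstream of its start. Exon and intron boundaries were not used here. In all, 4 of the 9 sites (44.4%) were eTreg-specific, 4 common and 1 cTreg-specific, while 17.2% of all 5521 sites were eTreg-specific. The sites are too few, and share too few genes, for this share to be read as more than a count.

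For the genes without a site, the nearest listed site was 44431 bp from Nfkb2, a site given to Mfsd13a, and 100854 bp from Nfkbia, a site given to Psma6. It was 158356 bp away for Traf3, 185793 bp for Traf1 and 247569 bp for Relb. The site near Nfkbia was just beyond the distance limit of 100 kb, but lay inside Psma6 and would go to that gene under any limit. The farthest member site lay 59230 bp from its gene.

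No listed site overlapped an annotated promoter of the 6 genes with a start site in the RefSeq table used (GRCm38.p6). It held 9 start sites and lacked Nfkb1 and Relb of the 8 genes. Whether Nfkb1 site C, 428 bp inside an end of its gene, lies at a promoter was therefore not tested. The 250 bases before the start are shown for Tnfaip3 (upstream start, chr10:19015411-19015660, minus strand), the gene with most sites, for Rel (chr11:23770970-23771219, minus strand), and for Nfkbia (chr12:55492648-55492897, minus strand), an NF-kB inhibitor gene without a site. Capitals mark matches to the NF-kB motif on either strand, overlapping matches merged.
Tnfaip3: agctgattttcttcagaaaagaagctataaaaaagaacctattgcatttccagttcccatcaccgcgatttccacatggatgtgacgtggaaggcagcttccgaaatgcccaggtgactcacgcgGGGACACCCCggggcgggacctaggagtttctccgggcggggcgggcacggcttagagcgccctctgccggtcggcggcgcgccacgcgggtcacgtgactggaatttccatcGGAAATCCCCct
Rel: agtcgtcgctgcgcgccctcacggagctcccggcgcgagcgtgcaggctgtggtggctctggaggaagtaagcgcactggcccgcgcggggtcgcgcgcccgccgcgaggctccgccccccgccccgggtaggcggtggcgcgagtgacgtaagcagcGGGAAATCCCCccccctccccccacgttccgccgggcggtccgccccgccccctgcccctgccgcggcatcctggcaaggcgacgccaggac
Nfkbia: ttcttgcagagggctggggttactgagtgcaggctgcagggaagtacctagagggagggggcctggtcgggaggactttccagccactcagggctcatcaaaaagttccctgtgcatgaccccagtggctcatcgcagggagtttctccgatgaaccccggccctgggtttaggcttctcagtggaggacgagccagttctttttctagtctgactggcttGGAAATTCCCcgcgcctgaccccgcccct
The NF-kB motif matched in 7 of the 9 windows and at 5 of the 6 genes (Tnfaip3, Rel, Nfkbia, Traf3 and Nfkb2, not Traf1), compared with 3.90% of the 32851 windows of all genes. The forkhead core TGTTTAC, searched on both strands, was in 0 of the 9 windows and in 3.17% of all. AP-1 letters TGANTCA were in 2 of the 9, against 6.75% of all. RUNX letters TGTGGTT were in 0 of the 9, against 4.40%, and the NFAT core GGAAAA in 1, against 20.4%. A match describes these letters only, and the sequences of the 9 Foxp3 sites themselves were not analysed here.

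Tnfaip3 carried more Foxp3 than IgG signal in WT cells at 4 of its 5 sites in both same-numbered pairs, beside 31.0% of all sites, and in R397W cells at none of the 5, beside 16.0%. At site D the second WT pair counts on 2 Foxp3 reads against none, and at sites B and E the second R397W pair had no reads with either antibody. At site B, 35923 bp beyond the gene's 3′ end, WT Foxp3 replicates 1 and 2 had a normalised read count of 69.3 and 31.5, the R397W Foxp3 pair 56.6 and 0, and all 4 IgG libraries 0. Both WT libraries and R397W replicate 1 thus had signal with no IgG reads, and the genotypes overlapped. With a floor of 3 reads in place of 0 in the IgG library, Foxp3 was 36.7-fold and 19.3-fold higher in the WT pairs. In R397W pair 1 it was 7.60-fold higher. Counts above 0 are taken as exact in such folds, so they are not lower bounds. Site B was the only one of the 9 sites without a read in any IgG library, as were 8.48% of all sites.

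Site C, 17139 bp beyond the 3′ end, had 24.3 and 40.0 in WT Foxp3 (20 and 86 reads), 0 in both R397W Foxp3 libraries and 0 in both WT IgG libraries. R397W IgG had 18.1 and 11.5 there (8 and 18 reads). With the same floor in place of 0, WT Foxp3 was 12.2-fold and 26.8-fold above IgG. R397W Foxp3 was 2.30-fold and 5.93-fold below it. The genotypes did not overlap with anti-Foxp3, and with IgG the order was the opposite one.

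At site D, inside the gene, WT Foxp3 replicate 1 had 107.9 and replicate 2 only 0.931 (89 and 2 reads). R397W Foxp3 had 31.5 and 0, WT IgG 19.8 and 0, and R397W IgG 36.2 and 33.7. In pair 1 the Foxp3 to IgG ratio was 5.44 in WT (95% exact interval 3.56 to 8.53, counting error only) and 0.870 in R397W (0.376 to 1.96). Signal in WT was thus carried by 1 library, and site C and site D changed places between the WT replicates, site D being the higher in replicate 1 and site C in replicate 2.

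The outermost Tnfaip3 sites were weaker. Site A had 24.3 and 0 in WT Foxp3 and 0 and 0.781 in R397W Foxp3, while IgG gave 11.3 and 0 in WT and 12.4 and 0 in R397W. Site E, the cTreg-specific one upstream, had 27.8 and 7.73 in WT Foxp3 and 13.5 and 0 in R397W Foxp3, with 0 in both WT IgG libraries and 10.8 and 0 in those of R397W. Replicates 1 held most of the reads at both, and the genotypes overlapped at both.

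**Figure D1:**
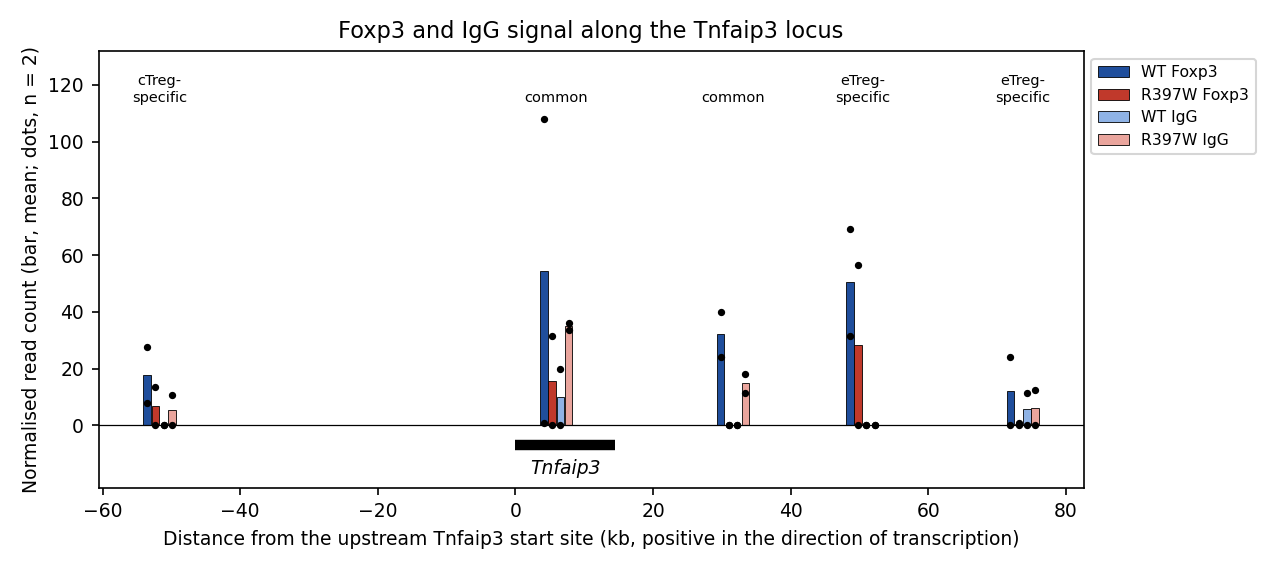
Normalised read count at the 5 Tnfaip3 sites by distance in kb from the upstream start site, with bars for the mean of 2 libraries of each group and dots for the libraries. WT Foxp3 has the highest mean at every site, from 12.1 at the farthest 3′ site to 54.4 inside the gene, and R397W IgG reaches 35.0 inside the gene.

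Because the 3 files were scaled separately, the reads of the 5 Tnfaip3 sites were also expressed per 100000 reads in all listed sites of a library, a level in which no deposited factor enters. With anti-Foxp3 the level reached 89.4 and 46.9 in WT against 42.2 and 0.356 in R397W, and with IgG 16.1 and 0 in WT and 30.5 and 27.4 in R397W. WT Foxp3 replicate 2 and R397W Foxp3 replicate 1 lay close together, and R397W replicate 2 had 1 read at the gene's 5 sites. With IgG both R397W libraries lay above both WT libraries, the reverse of the order with anti-Foxp3. The part of this background in the genotype values was not tested.

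Nfkb1 had signal of similar size with anti-Foxp3 and with IgG. Per 100000 reads in listed sites its 3 sites had 102.2 and 144 in WT and 117 and 97.8 in R397W with anti-Foxp3, and 174 and 110.0 in WT and 133 and 183 in R397W with IgG. Each Foxp3 library lay below the IgG library of its pair except in WT pair 2, and the genotypes overlapped with both antibodies.

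Site C, at the edge of the gene, had 63.1 and 128 in WT Foxp3 and 57.8 and 43.2 in R397W Foxp3, and its IgG values were 176 and 98.5 for WT, with 102 and 159 for R397W. The Foxp3 to IgG ratio was 0.357 (95% exact interval 0.260 to 0.483) and 1.29 (1.07 to 1.56) in the WT pairs, and 0.567 (0.324 to 0.964) and 0.271 (0.204 to 0.357) in the R397W pairs. R397W Foxp3 lay below WT Foxp3 without overlap, a separation that was lost at equal totals, where each library's reads were scaled to the same sum over all listed sites.

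Site A of Nfkb1, near the other end, was the only one of the 9 with a higher fitted value in R397W. Anti-Foxp3 gave 45.9 and 29.6 in WT and 77.5 and 104 in R397W, and IgG gave 64.8 and 64.2 in WT and 89.3 and 212 in R397W. IgG exceeded Foxp3 in all 4 pairs on the deposited scale, with ratios of 0.709 and 0.461 in WT and 0.868 and 0.489 in R397W, and in 3 of the 4 at equal totals, R397W pair 1 being the exception. On the deposited scale the R397W libraries stood above the WT libraries with both antibodies. At equal totals this order held with anti-Foxp3, and with IgG the genotypes overlapped.

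Site B of Nfkb1 was the strongest of the 9 in WT, with a mean at percentile 97.9 of the eTreg-specific sites. WT Foxp3 had 157 and 83.3 there and R397W Foxp3 149 and 58.6, while WT IgG had 93.0 and 0.544 and R397W IgG 166 and 0.952. In pairs 1 the ratio was 1.68 (95% exact interval 1.35 to 2.11) in WT and 0.895 (0.632 to 1.27) in R397W, the latter turning above 1 at equal totals. In pairs 2 the IgG library had 1 read, and the ratios of 153 (27.2 to 6076) and 61.5 (10.7 to 2463) rest on it. The genotypes overlapped, with R397W somewhat below WT in each replicate.

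Rel had little signal in any library. WT Foxp3 had a normalised read count of 19.4 and 0 at its site and R397W Foxp3 one of 0 and 1.29, with 0 in both WT IgG libraries and 2.26 and 0 in those of R397W. All but 3 of its reads came from WT Foxp3 replicate 1, which had 16, and its WT mean lay at percentile 24.0 of the common sites.

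**Figure D2:**
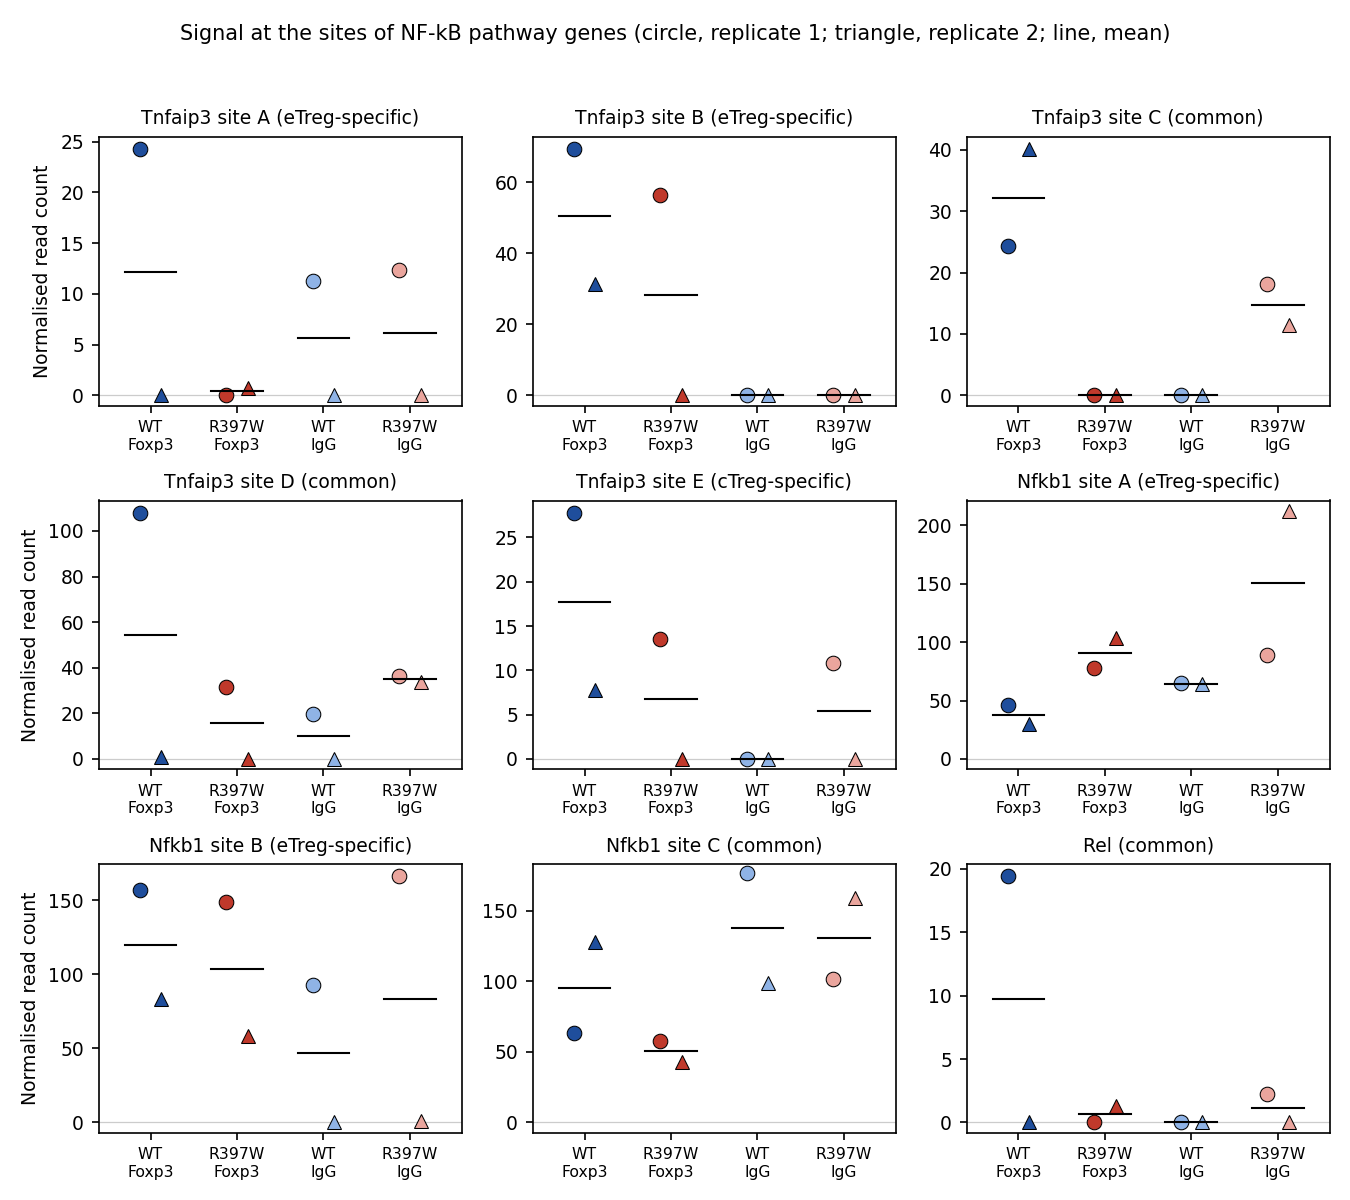
Normalised read count at each of the 9 sites in the 8 libraries, with circles for replicate 1, triangles for replicate 2 and a line for the mean of each group, on a linear axis from 0 in each panel. The 2 libraries of a group are often far apart, as at Tnfaip3 site D with 107.9 and 0.931 in WT Foxp3, and at Nfkb1 sites A and C the IgG means exceed the Foxp3 means of the same genotype.

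Foxp3 was then set against IgG in each same-numbered pair over all 9 sites. In WT, 5 of 9 sites had more Foxp3 than IgG signal in both pairs (Tnfaip3 sites B, C, D and E and Nfkb1 site B), beside 31.0% of all sites, and the same 5 did at equal totals, beside 23.5%. In R397W, 0 of 9 did, beside 16.0% of all sites, and at equal totals Nfkb1 site B did, beside 15.4%. IgG was the higher in both R397W pairs at 4 of 9 sites (Tnfaip3 C and D, Nfkb1 A and C), beside 12.2% of all sites. In both WT pairs it was the higher at 1 (Nfkb1 A), beside 7.53%. At equal totals it was so at 3 in R397W (no longer Nfkb1 A), beside 13.5%, and at 1 in WT, beside 12%. At Tnfaip3 sites C and D, Foxp3 was above IgG in both WT pairs and below it in both R397W pairs, a pattern that 4.31% of all sites had.

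**Figure D3:**
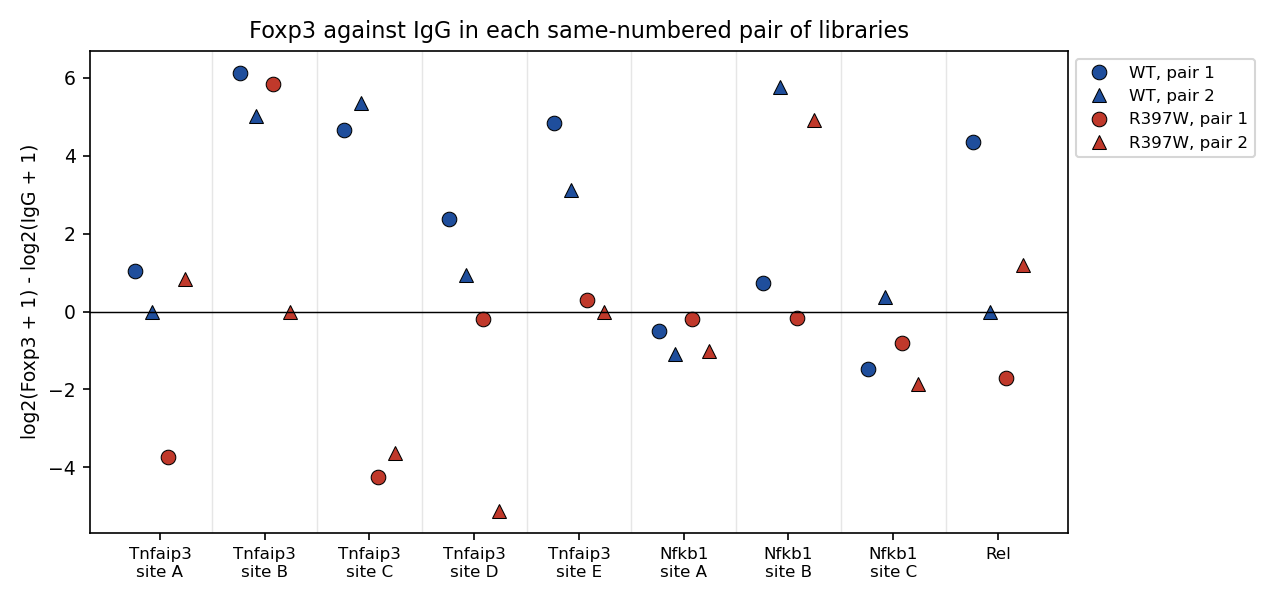
Difference between Foxp3 and IgG on the log2(normalised read count + 1) scale for each of the 9 sites, in WT pairs (blue) and R397W pairs (red), with circles for pairs numbered 1 and triangles for pairs numbered 2. At Tnfaip3 sites C and D both WT pairs lie above 0 and both R397W pairs below it, whereas all 4 pairs of Nfkb1 site A lie below 0.

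By limma over the 8 libraries, with Benjamini-Hochberg adjustment over all sites, none of the 9 sites passed 0.05 in WT Foxp3 over IgG, where 0.0725% of all sites passed, nor in R397W, where 0.0% did. The largest log2 differences in WT were 5.58 (SE 3.0, unadjusted p = 0.0626, limma adjusted p = 0.991) at Tnfaip3 site B and 5.01 (SE 3.07, limma adjusted p = 0.991) at Tnfaip3 site C. Both WT IgG libraries had 0 at both sites, so these sizes depend on the pseudocount of 1. In DESeq2 these 2 sites had an unadjusted p of 0.0155 (B) and 0.0224 (C), beside 197 sites of all under 0.05. No site passed after adjustment in DESeq2, and in edgeR 0 of the 9 had an unadjusted p under 0.05, beside 42 of all. The 9 sites had a median of 2.18 for WT and −0.61 for R397W, beside 1.27 and 0.05 over all sites. At equal totals, the medians of the 9 sites became 1.92 and −0.41, beside 1.00 and 0.00050 over all sites, so that the WT values shifted with the scaling. The WT median of the 9 sites was 0 without WT Foxp3 replicate 1 (0 over all sites) and 0.29 without WT IgG replicate 2 (0.21 over all sites). It was 4.35 without WT Foxp3 replicate 2 (2.68 over all sites) and 3.86 without WT IgG replicate 1 (2.18 over all sites). The R397W median of the 9 sites was 0.42 without R397W IgG replicate 1 (1.32 over all sites). It was −1.04 without R397W Foxp3 replicate 1 (−0.83 over all sites) and −0.82 without R397W Foxp3 replicate 2 (1.11 over all sites). Without R397W IgG replicate 2 it was −1.11 (−0.71 over all sites).

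The excess of Foxp3 over IgG was lower in R397W than in WT at 8 of 9 sites by the fitted values, as it was at 65.7% of all sites, and it passed at none, as at 0.0% of all. Only Tnfaip3 site C had an unadjusted p under 0.05 (log2 difference −8.96, SE 4.34, unadjusted p = 0.0391, limma adjusted p = 1.00), beside 91 sites or 1.65% of all, and it also had one in edgeR (30 sites of all) and DESeq2 (109 sites of all). Of this value 3.95 came from the IgG libraries, where R397W had reads and WT had none. R397W IgG had the higher fitted value at 7 of the 9 sites, beside 56.7% of all sites.

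The 4 Foxp3 libraries were then set against each other by genotype, to ask whether occupancy differs when Foxp3 carries the forkhead-domain change. The fitted value was lower in R397W at 8 of 9 sites, beside 60.4% of all sites, with a median log2 fold change of −1.58 beside −0.39. No member passed in limma (lowest adjusted p = 1.00), and 0.0% of all sites did. None had an unadjusted p under 0.05 in limma or edgeR, and in DESeq2 Tnfaip3 site C did (unadjusted p = 0.0418, adjusted p = 1.00). Over all sites such values numbered 18 in limma (0.326%), 40 in edgeR and 60 in DESeq2. The genotypes did not overlap at 2 sites lower in R397W (Tnfaip3 C and Nfkb1 C), beside 12.6% of all sites, and at 1 site higher (Nfkb1 A), beside 6.43%. The largest fold change was −5.01 (SE 3.28, limma adjusted p = 1.00) at Tnfaip3 site C, and the other 4 Tnfaip3 sites had −2.65 (B), −2.06 (E), −1.91 (A) and −1.35 (D). These sizes and their order depend on the setting, since site C had −2.86 with a pseudocount of 5 and −8.31 in edgeR, where site A had −4.54 and site B −0.84. Nfkb1 had 1.26 (A), −0.29 (B) and −0.83 (C), and Rel had −1.58.

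The count of 8 rests on particular libraries. It was 4 of 9 without WT Foxp3 replicate 1 and 5 of 9 without R397W Foxp3 replicate 2, where 35.2% and 39.1% of all sites were lower, and it stayed at 8 without either of the other Foxp3 libraries. Without WT Foxp3 replicate 2, Tnfaip3 site C passed in limma (log2 fold change −4.66, adjusted p = 0.00329), as 1 of 643 such sites, at a point where both R397W libraries had 0 and therefore no spread.

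**Figure D4:**
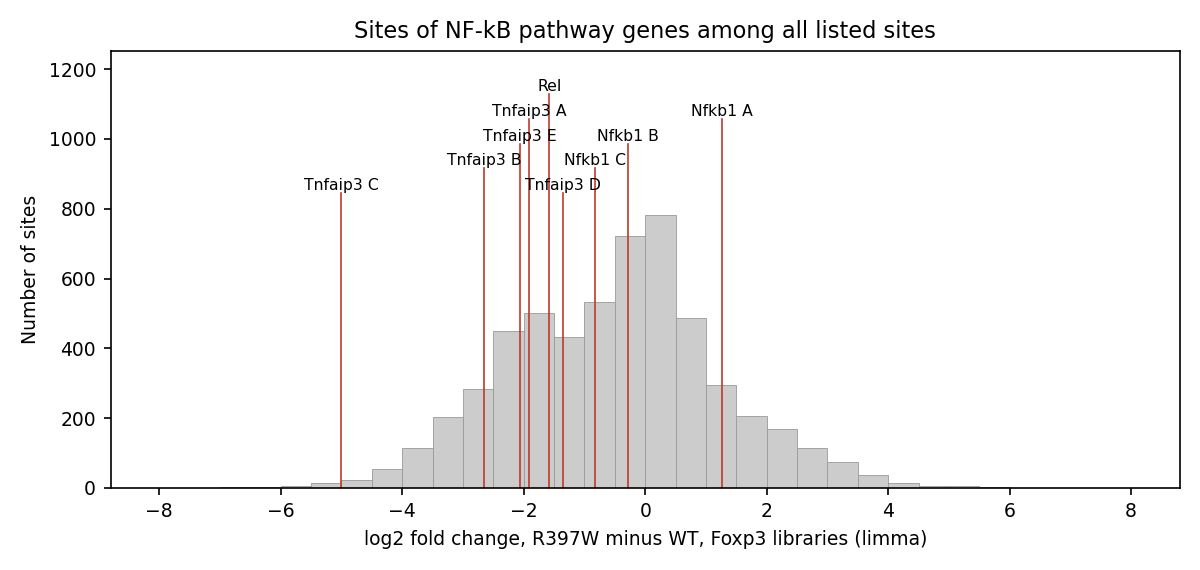
Log2 fold change of R397W against WT in the Foxp3 libraries, with grey bars for the number of sites among all 5521 in bins of 0.5 and red lines for the 9 sites of NF-kB pathway genes. The lines run from −5.01 at Tnfaip3 site C to 1.26 at Nfkb1 site A, on either side of the median of all sites, −0.39.

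The other genes of the pathway were examined by a list of 75, of which 29 had a listed site and 57 sites in all (37 common, 12 cTreg-specific and 8 eTreg-specific). Rela, the remaining subunit gene, had none. Among 5 genes of IkB proteins only Nfkbiz had sites, 4 common ones. Kinase genes had sites at 3 of 10, with 7 of the 10 sites at Prkcq, which encodes the protein kinase C of T cell receptor signalling. Adaptor and ubiquitin ligase genes had them at 7 of 19, among them Malt1 and Birc3. Inhibitor genes had them at 5 of 10, including Tnip1 and Tnip3, which encode A20-binding proteins, and Cyld, a deubiquitinase gene. Sites were present at 3 of 10 receptor genes (Tnfrsf1b, Tnfrsf9 and Cd27), 3 of 6 ligand genes and 7 of 14 target genes. Listed sites were given to 2760 protein-coding genes. What share of all such genes this makes was not worked out, so these counts have no base rate beside them.

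None of the 57 sites passed in limma in any of the 4 comparisons, in either direction. R397W Foxp3 was lower than WT Foxp3 at 44 and higher at 13 (60.4% of all sites were lower), with a median log2 fold change of −1.12 beside −0.39 over all sites, and lower at 20 of 57 when WT Foxp3 replicate 1 was left out and at 24 when R397W Foxp3 replicate 2 was. Foxp3 exceeded IgG in both pairs at 21 of 57 sites in WT, beside 31.0% of all sites, and at 7 of 57 in R397W, beside 16.0%. The 3 genes of the list with the highest WT Foxp3 mean at a site were Pim1, a survival kinase gene, Zc3h12a, which encodes the RNase Regnase-1, and Ltb, the lymphotoxin beta gene. At Pim1 (common, 53346 bp upstream of the start) anti-Foxp3 gave 263 and 568 in WT and 197 and 387 in R397W, and IgG gave 188 and 388 in WT and 235 and 139 in R397W. Zc3h12a (common, inside the gene) had 335 and 366, 404 and 245, 303 and 127, and 169.8 and 159.7 in the same order of groups. At Ltb (common, 124 bp upstream of the start) these values were 147 and 213, 173 and 206, 158 and 52.2, and 192 and 139. Signal at these 3 sites was well above that at any Tnfaip3 site, with IgG of similar order.

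The genes whose summed signal over the 8 libraries was most like that of Nfkb1 were Osbpl3, Clk1 and Med4 (Pearson r = 0.935, 0.921 and 0.901), and those most like Tnfaip3 were Galm, Tut7 and Stat4 (0.982, 0.972 and 0.970), among 1017 genes with 2 or more sites. These values are descriptive, the 8 points share library depth, and 50 genes exceeded 0.9 for Tnfaip3 and 3 for Nfkb1.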

How the data were processed

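Foxp3 and IgG CUT&Tag libraries, 2 per genotype and antibody, were grouped by their titles. The deposited signal is a normalised read count per library and site, spike-in normalised per the file names of the authors. Per the submitters' processing notes, the tools included DiffBind 3.12.0 and Bowtie2 2.5.2, and the builds were dm6 and mm10. How sites were called and classed, and whether duplicates were removed, are points not given in the sources used here. Exact intervals (Clopper-Pearson, 95%) cover counting error only and treat reads as independent, which was not tested. Floors of 3 reads stand in for a count of 0 and take the other count as exact. Whole reads were recovered by dividing a library's values in each file by the smallest positive one, and 100% came out whole (tolerance 0.01). In 7 of 24 columns low values were too few to check this separately.

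Sites were joined to RefSeq genes (GRCm38.p6). The gene and site lists were chosen with earlier results of these data known. Every site of the 8 genes is named, and of the pathway list the called sites and the 3 genes with the highest WT mean. The likeness rule took the 2 member genes with the highest mean summed signal. Comparisons used limma 3.58.1 (R 4.3.3) with a trended prior and two-sided tests, on log2(value + 1) of all 5521 sites, with Benjamini-Hochberg adjustment and a threshold of 0.05, using 4 libraries for R397W against WT and 8 otherwise. Also tried were a pseudocount of 0.5 or 5, dropping the lowest 25% of sites, equal totals, replicate blocks, no trend, edgeR 4.0.16, DESeq2 1.42.0, other gene distances and each library left out. The limma step was also run on simulated counts with known changes, and the outcome of that run is not reported here.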

Additional observations from a re-analysis of the deposited data

Results flagged for a closer look

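At 2 Tnfaip3 sites, Foxp3 lay above IgG in both WT pairs and below it in both R397W pairs. The R397W minus WT difference in Foxp3 over IgG was −8.96 (log2, SE 4.34) at site C and −4.32 (log2, SE 4.57) at site D. The limma interaction passed at neither (adjusted p = 1.00 for both), and each group held 2 libraries. Among all sites, 4.31% had this pattern. The R397W minus WT difference in the IgG libraries alone was 3.95 at site C and 2.98 at site D. In the Foxp3 libraries alone it was −5.01 at site C and −1.35 at site D, the latter reaching 1.56 with 1 library left out. WT pair 2 at site D rests on 2 Foxp3 reads and 0 IgG reads.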

How the results depend on the processing

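Sites called in R397W against WT Foxp3 numbered 0 in limma and under every alternative except the omission of single libraries (0 to 643). At an unadjusted p under 0.05 there were 18 sites in limma, 40 in edgeR and 60 in DESeq2. For WT Foxp3 over IgG, 4 calls became 0 with a pseudocount of 5, at equal totals, without the trend, in edgeR, in DESeq2 and with a replicate block by cell sample (added after the data were examined), while the replicate block gave 1 call, with IgG the higher, so that all 4 were lost, and 0 to 189 were called with single libraries left out. R397W Foxp3 over IgG kept 0 calls throughout (81 sites at an unadjusted p under 0.05 in limma, 20 in edgeR, 81 in DESeq2). The interaction of genotype and antibody had 0 calls, 1 with the replicate block, and 0 to 182 with single libraries left out. The cause of these changes was not tested. The Foxp3 and IgG libraries of a genotype share a sample name in their titles, whereas across genotypes only the number is shared. The correlation of the deviations of same-numbered libraries was 0.0375 between WT Foxp3 and WT IgG and 0.135 between R397W Foxp3 and R397W IgG. Across genotypes it ranged from 0.0873 to 0.167, so libraries with the same sample name were no more alike by this measure. All 9 member sites kept the sign of their R397W against WT fold change under both pseudocounts, equal totals, the replicate block and edgeR. With 1 Foxp3 library left out, 5 turned: Nfkb1 B ranged from −0.95 to 0.38, Rel from −3.75 to 0.60, Tnfaip3 A from −4.24 to 0.42, Tnfaip3 B from −5.58 to 0.27 and Tnfaip3 D from −4.26 to 1.56. The number of member sites was 5 with a gene limit of 10 kb, since 4 Tnfaip3 sites lie farther out, and 9 without the widened gene body. Summed over the 4 common sites, Foxp3 over IgG in WT pair 1 was 1.09 and became 0.634 at equal totals. Over all common sites it was 1.56 and became 0.907. Over the 4 eTreg-specific sites it was 1.75 and became 1.35, beside 1.70 and 1.32 over all of that class. In WT pair 2 the 4 common sites had 1.71 on the deposited scale, beside 1.21 over all common sites. In the R397W pairs they had 0.563 and 0.218, beside 1.12 and 1.06. The 4 eTreg-specific sites had 2.23 in WT pair 2, beside 1.44, and 1.06 and 0.766 in the R397W pairs, beside 0.880 and 1.03. At equal totals the common sums became 1.34 in WT pair 2 and 0.486 and 0.198 in the R397W pairs, beside 0.945, 0.969 and 0.963. The eTreg-specific ones became 2.31, 1.25 and 0.858, beside 1.49, 1.04 and 1.15. In WT IgG, Nfkb1 site C made up 176 of the common sum of 196 in replicate 1 and all 98.5 in replicate 2. Nfkb1 site A made up 64.2 of the eTreg-specific sum of 64.7 in WT IgG replicate 2. The single cTreg-specific site had no IgG reads in 3 of 4 pairs and gave no ratio there. From 0 to 6 of the 9 sites had no reads in a library. The number did not follow the reads in listed sites, being 3 and 1 in the libraries with the fewest (111274 and 111359) and 6 in WT IgG replicate 2 with 288223. The 3 Nfkb1 sites had reads in all 8 libraries.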
